A study of Mus musculus with 15 samples.

Results

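The aryl hydrocarbon receptor (AHR) and CYP1 genes were examined in RNA sequencing of whole mouse liver. The 7 genes were taken by symbol: Ahr, Arnt, Ahrr, Tiparp, Cyp1a1, Cyp1a2 and Cyp1b1. All 7 were found among the 37991 gene identifiers of the count table, and all 7 passed the filter on low counts that left 14258 genes for testing. The libraries came from 15 female C57BL/6 mice on a chow diet, 1 library per mouse, bred from S6K1 heterozygous parents. Young WT mice (n = 5) were 90 days old and old WT mice (n = 5) were 600 days old, both with intact Rps6kb1, the gene of ribosomal S6 kinase 1 (S6K1). Old KO mice (n = 5) were also 600 days old and lacked S6K1 in all tissues. No young KO group was sequenced, so genotype was compared at 600 days alone, and the labels name no AHR ligand for any group. Libraries are named by group and by the number of the mouse in its label, which is 1, 2, 3, 4 and 6 for young WT, 1, 4, 5, 7 and 10 for old WT, and 1, 2, 4, 5 and 6 for old KO.

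AHR is a transcription factor that waits in the cytoplasm with chaperones and enters the nucleus when it binds a ligand, such as a dioxin, a plant indole or a metabolite of tryptophan. There it pairs with ARNT and binds DNA at the xenobiotic response element (XRE), which raises transcription of the CYP1 enzymes. AHRR, a repressor that competes for ARNT, and TIPARP, which ADP-ribosylates AHR, are themselves targets of the receptor and dampen it. In liver CYP1A2 is made constitutively by hepatocytes near the central vein, CYP1A1 is hardly made until the receptor is activated, and CYP1B1 belongs mostly to mesenchymal cells.

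The DNA in front of these genes shows how the targets differ in sequence. Promoters of 300 bases, from 250 before to 50 after the start, were available for 6 of the members in RefSeq (GRCm38.p6). They are shown for the 2 CYP1A genes, which lie head to head on chromosome 9, and for Ahrr. Capitals mark the XRE core (GCGTG, or CACGC where it is read on the other strand) and the TATA box (TATAAA).

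Cyp1a1, chr9:57697363-57697662, plus strand: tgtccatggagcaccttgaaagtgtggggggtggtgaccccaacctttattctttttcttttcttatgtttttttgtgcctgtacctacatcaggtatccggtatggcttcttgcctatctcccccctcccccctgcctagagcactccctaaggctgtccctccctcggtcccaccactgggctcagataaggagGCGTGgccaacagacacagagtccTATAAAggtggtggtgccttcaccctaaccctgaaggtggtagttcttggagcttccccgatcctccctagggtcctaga

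Cyp1a2, chr9:57683606-57683905, minus strand: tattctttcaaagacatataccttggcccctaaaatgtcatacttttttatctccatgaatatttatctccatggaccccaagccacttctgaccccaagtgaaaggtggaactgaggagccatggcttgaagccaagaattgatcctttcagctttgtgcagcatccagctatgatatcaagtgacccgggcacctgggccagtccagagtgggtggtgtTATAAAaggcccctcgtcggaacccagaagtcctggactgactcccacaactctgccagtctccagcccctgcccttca

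Ahrr, chr13:74292282-74292581, minus strand: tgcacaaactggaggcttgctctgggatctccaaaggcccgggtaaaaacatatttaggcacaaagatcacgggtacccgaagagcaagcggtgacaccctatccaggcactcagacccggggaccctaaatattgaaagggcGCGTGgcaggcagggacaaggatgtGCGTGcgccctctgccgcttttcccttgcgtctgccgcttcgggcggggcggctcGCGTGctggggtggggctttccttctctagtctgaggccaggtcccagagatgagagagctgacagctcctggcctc

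Both CYP1A promoters held a TATA box on the sense strand, beginning 30 bases before the start in Cyp1a1 and 29 before it in Cyp1a2. TATAAA occurred in 8.32% of 32851 promoters of this length. The letters GCGTG, searched on both strands, occurred once in Cyp1a1, Arnt, Tiparp and Cyp1b1 and 3 times in Ahrr, and did not occur in this window of Cyp1a2. They are common, in 32.4% of all promoters. The longer form TNGCGTG, each match of which contains the core, occurred in Ahrr alone among the 6 and in 5.07% of all promoters. Of the other letters searched on both strands, TGACGTCA, the cyclic AMP response element, was in Arnt and in 1.79% of promoters. The E-box CACGTG was in none of the 6 and in 7.15% of promoters.

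The starts of Cyp1a2 and Cyp1a1 are separated by 13957 bases on NCBIM37, the build of the count table, and the genes are read away from each other. Between the starts TNGCGTG occurred 8 times, or 0.573 per kilobase against 0.0713 on the whole of chromosome 9, and GCGTG occurred 19 times (1.36 against 0.445 per kilobase). Of the 8 longer matches, 7 lay within 1500 bases of the Cyp1a1 start and 0 within 1500 bases of the Cyp1a2 start. The 300 bases that hold 4 of them are shown because they are the densest stretch of XRE letters between the 2 genes. They were 66.7% G and C, and the densities above were not adjusted for base composition. Counted from the Cyp1a1 start, these 300 bases run from position -1091 to -792, with TNGCGTG on either strand in capitals.

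Cyp1a interval, NCBIM37 chr9:57544329-57544628, plus strand: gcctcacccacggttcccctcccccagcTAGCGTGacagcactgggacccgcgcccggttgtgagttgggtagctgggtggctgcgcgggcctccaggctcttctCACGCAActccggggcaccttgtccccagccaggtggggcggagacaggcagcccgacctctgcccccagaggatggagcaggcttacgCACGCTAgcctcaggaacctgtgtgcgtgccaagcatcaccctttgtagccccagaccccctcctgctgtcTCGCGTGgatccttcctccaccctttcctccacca

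A match of letters describes the sequence and does not show that the receptor was bound there in these livers.

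**Figure D1:**
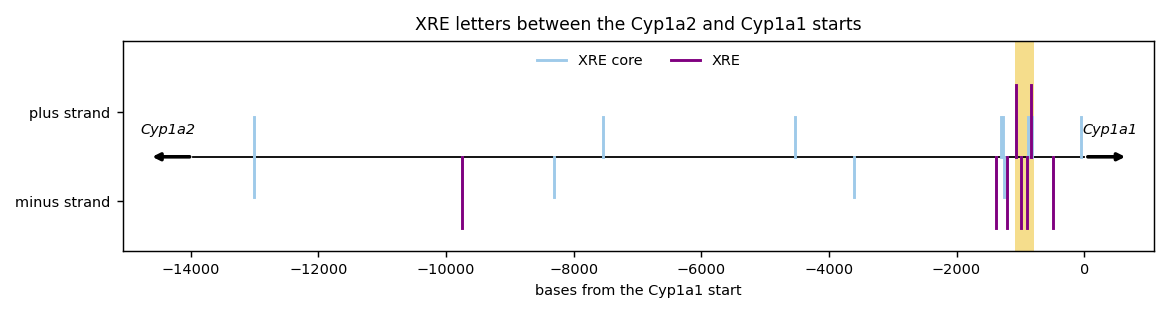
Matches of XRE letters between the starts of Cyp1a2 (left arrow) and Cyp1a1 (right arrow), against the distance in bases from the Cyp1a1 start. Pale ticks are GCGTG alone, dark ticks are TNGCGTG, ticks above the line are on the plus strand, and the shaded band is the stretch of 300 bases printed in the text, which holds 4 of the 8 dark ticks.

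Libraries held from 21801754 to 38065359 counts among young WT mice. The totals of old WT mice ran from 27063911 to 31990482, and those of old KO mice from 21984658 to 27923739. Levels are given as CPM, the counts of a gene scaled to the size of its library. Rps6kb1 checked the labels, since its 5 old KO libraries (15.2 to 20.8 CPM) were all below the young WT (33.3 to 41.4 CPM) and old WT libraries (34.6 to 45.3 CPM). Old WT 7 stood somewhat apart, with a median correlation with its group of 0.975 against 0.985 to 0.987 for the other old WT libraries, and results that rest on it are given with and without it. Young WT 6 (0.978 against 0.984 to 0.985) and old KO 6 (0.980 against 0.984) were also the least like their groups. Hepatocyte genes dominated as the tissue label says, with 8 markers summing to 88965 CPM or more in every library. That lowest sum was in young WT 6, against 128907 to 138225 CPM in the other young WT libraries. In bulk liver, fewer cells of a type and less RNA per cell cannot be told apart.

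The 7 genes covered very different levels in these livers. In RPKM, which scales CPM to the length of the exons so that genes can be compared, Cyp1a2 was by far the most abundant, with a mean of 130 over the 15 libraries, above 97.5% of the genes tested. The receptor followed, with Ahr at 12 RPKM and its partner Arnt at 5.75 RPKM. Tiparp, at 2.96 RPKM, stood near the middle of the genes tested (48.2nd percentile). Cyp1b1, at 0.295 RPKM, Cyp1a1, at 0.165 RPKM, and Ahrr, at 0.0362 RPKM, were close to the floor. Cyp1a2 was thus 788 times as abundant as Cyp1a1 on the RPKM scale, and Ahr was 331 times as abundant as its repressor. By group means this order was the same in young WT, old WT and old KO livers. Within each group the RPKM ranges of Cyp1a2, Ahr, Arnt and Tiparp did not overlap each other. Those of Cyp1b1 and Cyp1a1 overlapped in every group, and those of Cyp1a1 and Ahrr in young WT.

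With age none of the 7 genes passed the threshold. In edgeR's quasi-likelihood test (adjusted p under 0.05) 0 of 7 were called between old WT and young WT, against 18.8% of all genes tested, and 0 of 7 had an unadjusted p under 0.05, against 33% of all genes. Of the 7, 3 were higher and 4 lower in old WT, with a median log2 fold change of -0.00 against 0.01 over all genes. Between old KO and old WT 0 of 7 were called, against 0.533% of all genes, and 1 of 7, Cyp1a2, had an unadjusted p under 0.05, against 11.6%. Of the 7, 5 were higher and 2 lower in old KO, with a median of 0.05 against 0.00. DESeq2 called Cyp1a2 there and 2.17% of all genes, and limma voom called 0 of 7 and 0.161% of all genes. With age these tools called 22.8% and 19.3% of all genes, and 0 of 7. In the third comparison, of old KO with young WT, age and genotype both differ. There 1 of 7, Cyp1a2, was called, against 23.3% of all genes, and the median was 0.21 against -0.01. It was also the 1 of 7 with an unadjusted p under 0.05 (36.8% of all genes) and the 1 called by DESeq2 (26.5%) and by limma voom (22.9%). Library ranges were separate with age for 0 of 7 members and 11.5% of all genes, with genotype for 1 member and 3.19%, and between old KO and young WT for 1 member and 13.9%. The comparisons share groups of mice, so they are not independent of each other.

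**Figure D2:**
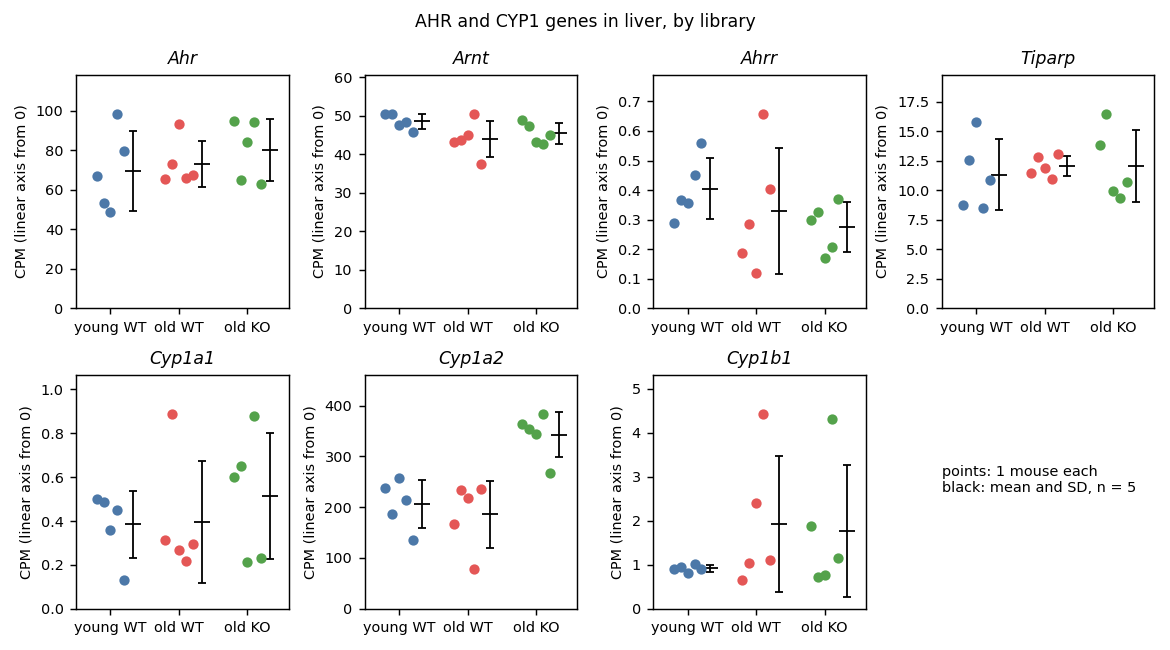
CPM of the 7 genes in each library, on linear axes that start at 0, with 1 point per mouse in young WT, old WT and old KO and the mean and SD (n = 5) in black beside each group. In the Cyp1a2 panel all 5 old KO points (268 to 384 CPM) lie above all 10 WT points, and in the Cyp1b1 panel single old libraries stand above the rest.

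Ahr, the receptor, is protein-coding like the other 6 and occupies chromosome 12 from 36182646 to 36219710 on the minus strand (NCBIM37). Its levels in young WT 1, 2, 3, 4 and 6 were 67.2, 53.2, 48.8, 98.7 and 79.9 CPM. Those in old WT 1, 4, 5, 7 and 10 were 65.4, 73.1, 93.5, 66.3 and 67.7 CPM. The old KO livers 1, 2, 4, 5 and 6 gave 95, 64.8, 84.5, 94.4 and 62.9 CPM. The 3 groups overlapped widely, and the highest and the lowest library were both young WT. Young WT averaged 69.6 ± 20.4 CPM, old WT 73.2 ± 11.7 CPM and old KO 80.3 ± 15.6 CPM (SD, n = 5 each). Expressed as a log2 fold change, Ahr differed by 0.07 (SE 0.18, 95% interval -0.31 to 0.46, edgeR adjusted p 0.807) with age and 0.13 (interval -0.25 to 0.52, adjusted p 0.839) with genotype. Against young WT old KO differed by 0.21 (interval -0.17 to 0.59, adjusted p 0.429). A short stretch of 60 bases of Ahr is also covered by Gm17436 on the opposite strand, which had 0 counts in all libraries.

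Arnt, the partner that AHR needs to bind DNA and that hypoxia-inducible factors also use, lies on chromosome 3 from 95238310 to 95301162 (plus strand). Its expression was 50.5, 50.6, 47.5, 48.4 and 45.9 CPM in young WT, 43.2, 43.8, 44.9, 50.6 and 37.4 CPM in old WT and 48.9, 47.4, 43.1, 42.8 and 44.9 CPM in old KO, in the order of libraries given above. Arnt varied little between mice, with a coefficient of variation of 4.12% in young WT, 10.7% in old WT and 5.9% in old KO. In old WT 4 of 5 libraries lay below all young WT libraries, and old WT 7 lay at the top of the young range. Means were 48.5 ± 2, 44 ± 4.73 and 45.4 ± 2.68 CPM (SD, n = 5 each). The log2 fold change with age was -0.14 (SE 0.0749, interval -0.30 to 0.02, edgeR adjusted p 0.196) and that with genotype was 0.05 (interval -0.11 to 0.21, adjusted p 0.875). These intervals are the narrowest among the 7 genes and hold no change of Arnt beyond a fold of 0.812 to 1.01 with age or 0.925 to 1.15 with genotype.

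Ahrr, the repressor, lies on chromosome 13 from 74348566 to 74429779 (minus strand) and had 4 to 18 counts per library. Young WT libraries had 0.289, 0.366, 0.358, 0.452 and 0.56 CPM, old WT libraries 0.187, 0.284, 0.119, 0.659 and 0.404 CPM, and old KO libraries 0.299, 0.327, 0.171, 0.209 and 0.371 CPM. Both the lowest and the highest value were in old WT, so the other groups lay within its range. The log2 fold change was -0.30 (SE 0.375, edgeR adjusted p 0.614) with age, -0.23 (SE 0.406, adjusted p 0.892) with genotype and -0.53 (SE 0.393, adjusted p 0.353) between old KO and young WT. At this depth the interval of the genotype difference, from -1.09 to 0.63, does not exclude a change of 2-fold. Without old WT 7 the genotype difference turned to 0.17.

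Tiparp, the ADP-ribosyltransferase that is induced by AHR and turns it off, lies on chromosome 3 from 65332332 to 65359067 (plus strand). Young WT libraries had 8.74, 12.6, 15.8, 8.52 and 10.9 CPM, old WT libraries 11.5, 12.8, 11.9, 11 and 13.1 CPM, and old KO libraries 13.8, 16.5, 9.93, 9.34 and 10.7 CPM. All 5 old WT libraries fell inside the young range, and old KO had values on both sides of old WT. The log2 fold change of Tiparp was 0.09 (SE 0.175, edgeR adjusted p 0.745) with age and 0.00 (SE 0.176, interval -0.37 to 0.37, adjusted p 0.999) with genotype. On the opposite strand 4931440P22Rik overlaps 970 bases of Tiparp. It had 181 counts over the 15 libraries, and the strand setting of the counting is not given in the sources used here.

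Cyp1a2 was the member that stood apart in old KO livers. CYP1A2 oxidises caffeine, oestrogens and aromatic amines. The gene lies on chromosome 9 from 57524744 to 57531462 (minus strand). Its level was 238, 186, 258, 215 and 135 CPM in young WT mice 1, 2, 3, 4 and 6. It was 166, 233, 218, 77.6 and 235 CPM in old WT mice 1, 4, 5, 7 and 10. In old KO mice 1, 2, 4, 5 and 6 it was 363, 355, 345, 384 and 268 CPM. Every old KO library was above every WT library of either age, while young WT and old WT overlapped. Old WT 7 was the lowest of all 15.

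Cyp1a2 averaged 207 ± 48.2 CPM in young WT, 186 ± 66.7 CPM in old WT and 343 ± 44.3 CPM in old KO livers (SD, n = 5 each). Old KO was above old WT by 1.85-fold (95% interval 1.3 to 2.63), a log2 fold change of 0.88 (SE 0.241). With an unadjusted p of 0.00201 the gene ranked 230 of 14258, and it did not pass the threshold over all genes in edgeR (adjusted p 0.124). The exact 2-sided permutation test of this single gene gave p = 0.00794 (n = 5 each), the smallest that 5 mice against 5 allow. In all, 1.12% of the genes tested had old KO libraries that were all above the old WT libraries. DESeq2 passed the gene, with a log2 fold change of 0.89 and an adjusted p of 0.0165, and over all 8 alternative fits the adjusted p ranged from 0.0165 to 0.146. Leaving out each library in turn gave 0.68 to 0.98, with adjusted p from 0.0977 to 0.272. The lowest value, 0.68, came without old WT 7 (adjusted p 0.1).

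Against young WT, old KO had 1.66-fold more Cyp1a2 (interval 1.17 to 2.36), a log2 fold change of 0.73 (SE 0.24) that passed the threshold (edgeR adjusted p 0.0374). The exact 2-sided permutation p was 0.00794 (n = 5 each), and 7.32% of all genes had old KO libraries that were all above young WT. The call was made in 8 of 8 alternative fits (adjusted p 0.0053 to 0.0481) and in 7 of 15 fits that each left out 1 library (adjusted p 0.00404 to 0.0779). It was lost without young WT 1 (0.79), 2 (0.69), 4 (0.74) or 6 (0.61) and without old KO 1 (0.71), 2 (0.72), 4 (0.73) or 5 (0.69). Between old WT and young WT Cyp1a2 differed by -0.15 (SE 0.239, interval -0.66 to 0.35, edgeR adjusted p 0.691), and by 0.05 without old WT 7. In order of level old KO came first, and the neighbours young WT and old WT did not differ beyond their spread.

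**Figure D3:**
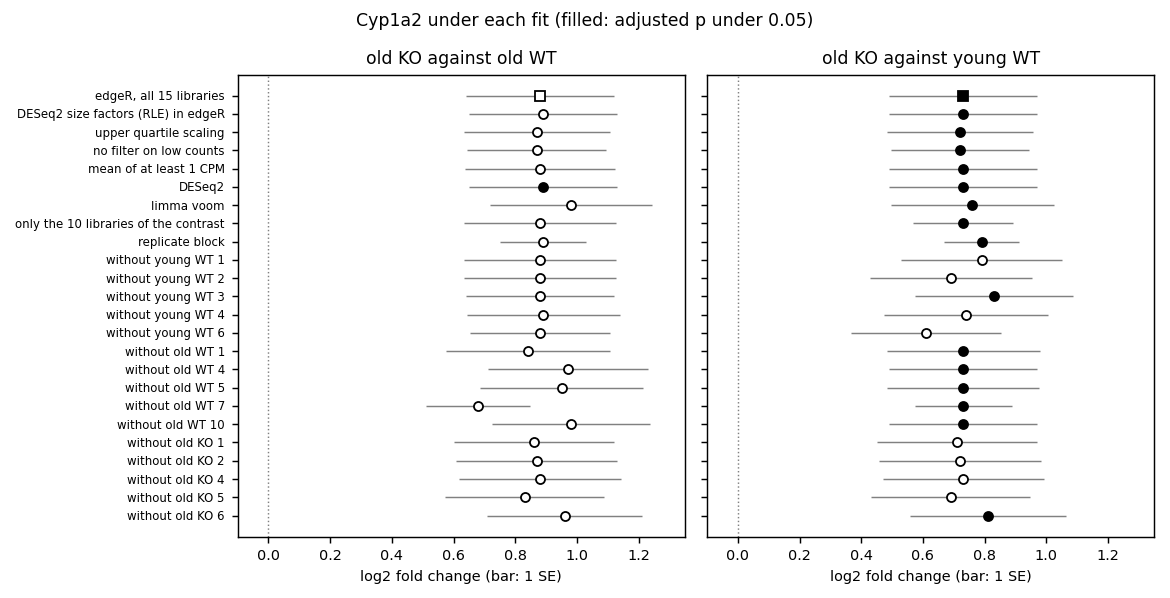
Log2 fold change of Cyp1a2 with bars of 1 SE, for old KO against old WT (left) and against young WT (right), in the fit of all 15 libraries (square), under 8 alternative fits and with each library left out in turn. Filled symbols have an adjusted p under 0.05. All values are positive, from 0.68 to 0.98 on the left and from 0.61 to 0.83 on the right, and the left panel has 1 filled symbol, DESeq2.

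Other quantities that bear on where and when Cyp1a2 is expressed were read beside it. Of 10 other genes of pericentral hepatocytes, among them Glul and Cyp2e1, 9 were higher and 1 lower in old KO than in old WT, with a median log2 fold change of 0.23, and 0 were called. Of general hepatocyte markers 6 of 8 (median 0.22) and of periportal genes 5 of 8 (median 0.13) were likewise higher in old KO, with 0 called in either list. The periportal changes ran from -0.47 to 0.98, the highest being that of the P450 gene Cyp2f2 (edgeR adjusted p 0.0679). The pericentral sum was 8099 to 12402 CPM in old KO, 5649 in old WT 7 and 8629 to 10984 in the other old WT libraries. Old WT 7, lowest in Cyp1a2 and in the pericentral sum, had the highest periportal sum, 6303 CPM against 2506 to 3201 in the other old WT libraries. Young WT 6, the lowest young WT library in Cyp1a2, had the lowest periportal sum of its group, 2514 CPM against 4598 to 5453. The pericentral sum of young WT livers was 11286 to 13594 CPM, with Cyp1a2 at 135 to 258 CPM. Old KO 1 had the lowest pericentral sum of its group, 8099 CPM, with Cyp1a2 at 363 CPM. Cyp2e1 made up most of the pericentral sum, with means of 8297, 5711 and 7118 CPM in young WT, old WT and old KO. Ass1 was the largest part of the periportal sum, with means of 2305, 1607 and 2200 CPM in the same order. The part of lobular zones in the result was not tested. With age 3 of the 10 pericentral genes were called, all lower, against 8.91% of all genes called lower, with a median of -0.47. Of 12 clock genes, which follow the hour of collection, 0 were called between the genotypes (median 0.06, range -0.34 to 0.85). With age 2 were called higher, Npas2 (0.99) and Cry1 (0.69), and 2 lower, Nr1d1 (-1.46) and Ciart (-2.39), with edgeR adjusted p from 0.00499 to 0.0373. Of all genes, 9.92% were called higher and 8.91% lower with age. The 12 peak at different hours, so their median cannot show whether the hour differed. The hour is not given in the sources used here, and its part in the changes with age or with genotype was not tested.

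Cyp1a1, the classical read-out of an activated receptor, lies on chromosome 9 from 57545420 to 57551629 (plus strand) and was scarcely expressed, with 3 to 25 counts per library. Young WT libraries had 0.5, 0.488, 0.358, 0.452 and 0.129 CPM, old WT libraries 0.312, 0.889, 0.268, 0.22 and 0.294 CPM, and old KO libraries 0.599, 0.653, 0.214, 0.88 and 0.232 CPM. Old WT 4 and old KO 5 were the highest, and the groups overlapped throughout. The log2 fold change was -0.00 (SE 0.435, edgeR adjusted p 0.996) with age and 0.40 (SE 0.459, interval -0.57 to 1.37, adjusted p 0.809) with genotype. Without old WT 4 these were -0.51 and 0.91, neither past the threshold.

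Some Cyp1a1 reads could come from its neighbour. Of 2570 windows of 50 bases in the Cyp1a1 transcript, the length of the reads, 94 (3.66%) occur letter for letter in the Cyp1a2 transcript of the GENCODE M1 annotation, where they make up 5.1% of the windows. With Cyp1a2 far more abundant, the few Cyp1a1 counts are uncertain where the counting let such reads through. Over the 15 libraries Cyp1a2 had 103542 counts and Cyp1a1 187. How many of the 187 came from Cyp1a2 was not tested. Arnt, Ahrr and Cyp1b1 shared 0 windows with any other protein-coding transcript.

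Cyp1b1, an enzyme of oestrogen and retinoid oxidation, lies on chromosome 17 from 80106234 to 80114401 (minus strand). It was even across young WT livers, at 0.895, 0.946, 0.814, 1.02 and 0.905 CPM. Old WT libraries had 0.656, 1.03, 2.41, 4.43 and 1.1 CPM, and old KO libraries 1.87, 0.726, 0.771, 4.32 and 1.16 CPM. Old WT 5 and 7 and old KO 1 and 5 were raised, and the remaining old libraries lay near the young range. The coefficient of variation was 8.35% in young WT, 80.4% in old WT and 84.6% in old KO. With age Cyp1b1 had a log2 fold change of 1.06 (SE 0.523, interval -0.04 to 2.17, edgeR adjusted p 0.168), and the exact 2-sided permutation p was 0.254 (n = 5 each). It fell to 0.52 without old WT 7. Between old KO and old WT it was -0.12 (SE 0.506, interval -1.19 to 0.95, adjusted p 0.962) and turned to 0.43 without old WT 7.

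Stellate cell and fibroblast markers were read beside Cyp1b1. The sum of 12 markers ran from 377 to 492 CPM among young WT livers, from 279 to 463 CPM among old WT and from 281 to 503 CPM among old KO livers. Old WT 7 and old KO 1 had the highest sum of their groups, while old KO 5 had 406 CPM. With age 1 marker was called higher, Col3a1 (1.01, edgeR adjusted p 0.0449), and 2 lower, Reln (-0.57, adjusted p 0.0348) and Hand2 (-0.45, adjusted p 0.0355). Of all genes, 18.8% were called with age. Between the genotypes 0 of 12 markers were called. The sum of 6 cholangiocyte markers, genes of the bile duct lining, was 29.8 to 51 CPM in young WT. It was 105 and 106 CPM in old WT 5 and 7 against 38.9 to 67.5 in the other old WT livers, and in old KO it was highest in old KO 1 (95.3 CPM), with 82.6 in old KO 4 and 78.1 in old KO 5. With age all 6 were higher (median 0.49) and 1 was called, Spp1 (0.98, edgeR adjusted p 0.0262). Between the genotypes 0 were called (median 0.04). Spp1 made up most of the sum, with means of 32.2, 63.6 and 58.4 CPM in young WT, old WT and old KO. The group mean of any other of the 6 was at most 5.37 CPM. The part of either cell type in the level of Cyp1b1 was not tested.

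**Figure D4:**
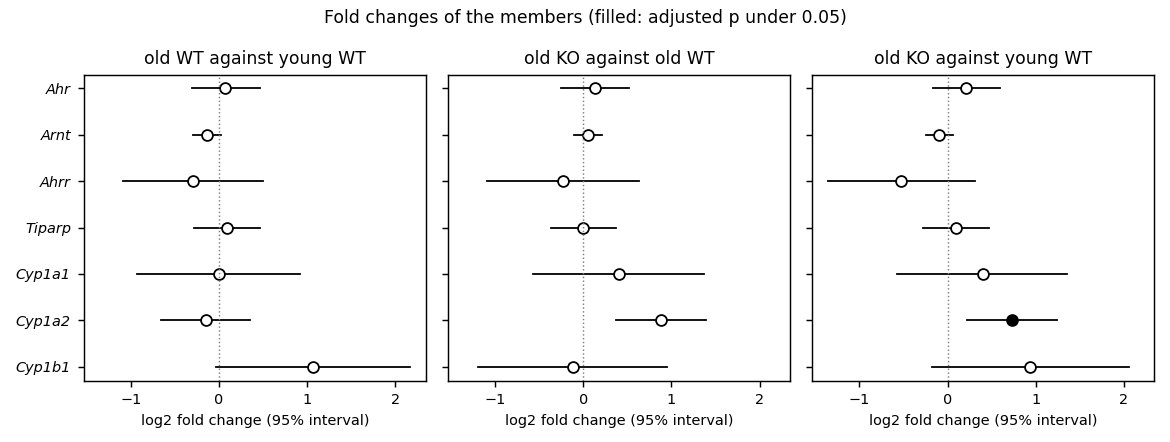
Log2 fold changes of the 7 genes with 95% intervals from edgeR, in old WT against young WT, old KO against old WT and old KO against young WT. Filled points have an adjusted p under 0.05. The 1 filled point is Cyp1a2 in old KO against young WT (0.73). The intervals are narrow for Arnt and wide for Ahrr, Cyp1a1 and Cyp1b1.

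Genes whose log2 CPM followed each member most closely over the 15 libraries were found among 12125 genes with a mean of at least 1 CPM. The correlations describe these libraries, which differ in depth, age and genotype, and carry no p. Differences between the groups were not removed first, so they can enter the correlations. For Cyp1a2 the closest genes were Pecr (Pearson r 0.88), Pccb (0.85) and Tfg (0.83). Pecr encodes a peroxisomal enoyl-CoA reductase, and had 133 ± 15.1, 132 ± 19.9 and 162 ± 10.8 CPM (SD, n = 5 each) in young WT, old WT and old KO, with a log2 fold change of 0.29 with genotype (edgeR adjusted p 0.268). For Cyp1b1 the closest genes included Dpt (0.88) and Mgp (0.86), which encode proteins of the extracellular matrix. Their Spearman rho of 0.56 and 0.76 was lower. Ahr was followed by Stat2 (0.85) and Slc39a2 (0.83), and Arnt by Agpat5 (0.89), Unk (0.85) and Cdh1 (0.85). Tiparp was followed by Cep70 (0.83), Zfp292 (0.79) and Vamp3 (0.77). The genes nearest to Ahrr were Mtdh (0.87), Nrd1 (0.86) and Tgfbr1 (0.85), and those nearest to Cyp1a1 were Gpn1 (0.78), Slco2b1 (0.76) and Fbxl4 (0.74), both members with few counts.

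The genes around the receptor were read in 4 lists. Over all genes 9.92% were called higher and 8.91% lower with age, 0.112% higher and 0.421% lower with genotype, and 12% higher and 11.3% lower between old KO and young WT. Of the AHR chaperones and partners, a list that also holds the clock genes Arntl, Npas2 and Clock, 16 of 19 were tested. With age 1 was called, Npas2, which pairs with an ARNT relative in the clock and is also 1 of the 12 clock genes. It was at 7.48 ± 1.64 CPM in young WT and 14.9 ± 3.04 CPM in old WT (SD, n = 5 each), a log2 rise of 0.99 (edgeR adjusted p 0.00499). Between the genotypes 0 of 16 were called, with 8 higher and 8 lower and a median of 0.01.

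Of the AHR battery and target genes, the conjugating and oxidising enzymes and other genes known to follow the receptor, 17 of 20 were tested. With age 5 rose and 1 fell, and the median was 0.09. Gsta2, a glutathione transferase, rose from a young WT level of 6.13 ± 1.92 to 19.2 ± 3.01 CPM with no overlap (SD, n = 5 each; log2 1.64, edgeR adjusted p 0.000147). Gstm1, of the same enzyme class, rose by 0.68 (adjusted p 0.00507), and Ugdh, which makes the sugar donor of glucuronidation, by 0.56 (adjusted p 0.0173). Also called higher were Nqo1 (0.44, adjusted p 0.0121) and Nfe2l2 (0.30, adjusted p 0.0173), which encodes another transcription factor, NRF2. The amino acid transporter gene Slc7a5 fell by 0.77 (adjusted p 0.0225), a call lost without young WT 3 (-0.59) or old WT 1 (-0.75). The part of the receptor in the changes with age was not tested. Between the genotypes 0 of 17 were called, with 10 higher and 7 lower and a median of 0.03.

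Of the tryptophan genes, whose enzymes make or remove AHR ligands, 12 of 13 were tested. With age 2 rose and 2 fell, with a median of -0.13. Ido2 rose from a young WT level of 32.1 ± 7.71 to 64.6 ± 10.5 CPM (SD, n = 5 each; log2 1.01, edgeR adjusted p 0.00111), and Haao rose by 0.33 (adjusted p 0.0301), a call lost without young WT 1 or 2 or old WT 1, 4 or 5 (0.28 to 0.38 over the 15 fits without 1 library). Tdo2, the main hepatic enzyme that opens the tryptophan ring, fell from a young WT level of 2407 ± 651 to 1284 ± 455 CPM (SD, n = 5 each; -0.91, adjusted p 0.0172), and Aadat fell by 0.47 (adjusted p 0.00188). Between the genotypes 0 of 12 were called, with 10 higher and 2 lower and a median of 0.10.

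The genes of electron transfer and heme, on which every P450 enzyme depends, were all tested (15 of 15). With age 3 rose and 2 fell, with a median of 0.15. Alas1, the first and limiting enzyme of heme synthesis, fell from a young WT level of 536 ± 217 to 197 ± 56.4 CPM with no overlap (SD, n = 5 each; log2 -1.45, edgeR adjusted p 0.00266). Por, the reductase that feeds electrons to P450 enzymes, fell by 0.88 (adjusted p 0.0089). The part of the hour of collection in the falls of Alas1 and Por was not tested. Cyb5b rose by 0.75 (adjusted p 0.00435) and Alad, the next enzyme of the heme pathway, by 0.50 (adjusted p 0.0495), a call made in 2 of 15 fits without 1 library, those without old WT 7 and old KO 4 (0.36 to 0.65 over all 15). Between the genotypes 1 of 15 was called, Hmox1, which breaks heme down, and the median was 0.10.

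Hmox1 fell from 23.4 ± 5.38 CPM in old WT to 13 ± 1.34 in old KO with no overlap (SD, n = 5 each; log2 -0.85, edgeR adjusted p 0.0484). The call was made in 5 of 8 alternative fits and in 4 of 15 fits without 1 library, those without young WT 1, 3 or 6 or old WT 5, with a range of -0.98 to -0.79 over all 15. Macrophages, which also express Hmox1, had lower markers in the same comparison, with 10 of 10 lower, 5 called (0 to 5 in the fits without 1 library) and a median of -1.16. The markers summed to between 236 and 585 CPM in old WT livers and to between 144 and 216 CPM in old KO livers, and their part in the fall of Hmox1 was not tested.

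**Figure D5:**
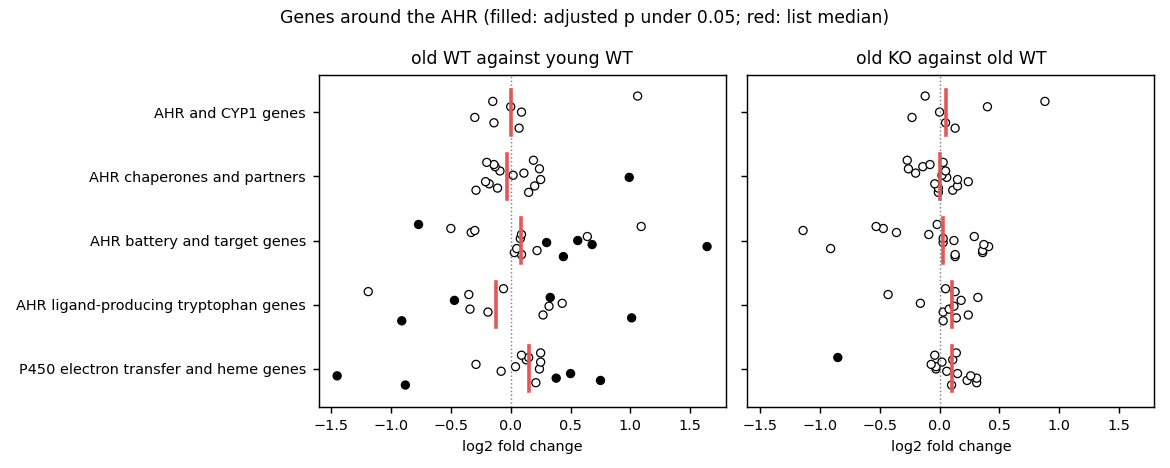
Log2 fold changes of the 7 genes and of the tested genes of 4 lists, in old WT against young WT (left) and old KO against old WT (right). Each point is a gene, filled where the adjusted p is under 0.05, and the red bar is the median of the list. Filled points are spread to both sides with age, and 1, Hmox1 at -0.85, is filled on the right.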

How the data were processed

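Poly(A) libraries (TruSeq Stranded mRNA, single-end reads of 50 bases) were made from whole liver. The authors mapped reads with TopHat (TopHat2 2.0.11 in the submitters' processing notes) to mm9 and counted them per gene with HTSeq. The annotation release and the strand setting of the counting are not given in the sources used here. The deposited values are raw counts per gene, neither normalised nor pooled, and were used as deposited. Positions came from GENCODE M1 (NCBIM37, the build called mm9), promoters from RefSeq (GRCm38.p6), and builds were not mixed.

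Counts were scaled by TMM and filtered with filterByExpr, and a quasi-likelihood model without covariates was fitted to all 15 libraries in edgeR 4.0.16 (R 4.3.3). P-values were adjusted by Benjamini-Hochberg over 14258 genes, with a threshold of 0.05, and all adjusted p are from this fit unless another tool is named. The scripts were tested on simulated data. CPM are counts scaled to the TMM-adjusted total, and RPKM divide them by the union of exons. Exact 2-sided permutation tests used log2 of CPM plus 0.1, and log2 CPM for correlations a prior count of 2. Alternatives were RLE and upper quartile scaling, no filter, a mean of at least 1 CPM, DESeq2 1.42.0, limma voom (limma 3.58.1), the 10 libraries of a contrast, a replicate block and leaving out each library. For the lists these were added after the data had been seen. The study used DESeq2 (1.18.1) without a stated formula.

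Groups came from sample titles. The 7 members and the lists were chosen with earlier results of these data known. The text names the members and Rps6kb1, up to 4 called genes per pathway list and contrast (age or genotype) by absolute log2 fold change, and the 3 genes most correlated with each member, of which 2 are not reported here. Col3a1, Reln, Hand2, Spp1, Glul, Cyp2e1, Cyp2f2, Ass1, Nr1d1, Ciart, Cry1, Arntl, Clock, Nqo1 and Nfe2l2 were named outside this rule. Each library is 1 mouse, so p-values measure the spread between mice. A total of at least 21801754 counts makes counting error small for Cyp1a2 and large for Ahrr and Cyp1a1.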

Additional observations from a re-analysis of the deposited data

Results flagged for a closer look

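Among the 21 combinations of member and group, 2 held a library far from the other 4 by Dixon's test, where chance gives about 1 in 20. The gaps and ranges of this test are on log2 of CPM plus 0.1. Both concern Cyp1a1, which has few counts. Young WT 6 had 0.129 CPM (3 counts), with a gap to the next library of 0.720 of the range of its group on the log2 scale. Old WT 4 had 0.889 CPM (25 counts), with a gap of 0.775 of the range on the same scale. Without young WT 6 the log2 fold change of Cyp1a1 with age was -0.18, and without old WT 4 it was -0.51, neither past the threshold (edgeR adjusted p 0.799 and 0.464, and 0.464 to 0.998 over the fits without 1 library).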

How the results depend on the processing

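Cyp1a2 was higher in old KO under all 8 alternative fits and all 15 fits without 1 library, in both comparisons. Against old WT it was called under DESeq2 (0.89), which also made the number of members called 1. Against young WT its range without 1 library was 0.61 to 0.83, with 0 to 1 members called. The calls in old KO against old WT depended on the tool and on single libraries. All genes called there were 309 with DESeq2 (90 higher, 219 lower; 16 and 60 in edgeR) and 23 with limma voom. Without 1 library they were 9 to 108, with 9 without old WT 4 and 10 without old WT 1. Leaving out old KO 2 or 6 gave 13 each, old KO 4 gave 14 and old KO 5 gave 17. Leaving out old WT 7 gave 37, young WT 4 gave 41 and old WT 10 gave 42. With age they were 1748 to 3284, the lowest without young WT 1. Depth limits Ahrr and Cyp1a1, which had no value at a mean of at least 1 CPM, and Ahrr left the filter in 1 of the fits without 1 library and had no adjusted p in DESeq2 for genotype.

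Values near 0 changed sign. Cyp1a1 with age was 0.00 with upper quartile scaling and without a filter and 0.01 with DESeq2. Tiparp with genotype was -0.02 with upper quartile scaling, -0.00 without a filter and -0.01 with a mean of at least 1 CPM and with limma voom. Without 1 library, the ranges with age were -0.03 to 0.22 for Ahr, -0.00 to 0.26 for Tiparp, -0.51 to 0.15 for Cyp1a1 and -0.26 to 0.05 for Cyp1a2. With genotype they were -0.01 to 0.10 for Arnt, -0.46 to 0.17 for Ahrr, -0.15 to 0.07 for Tiparp and -0.77 to 0.43 for Cyp1b1. For Tiparp between old KO and young WT it was -0.04 to 0.25. The causes were not tested.

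For the lists, the chaperones and partners called with age were 2 with DESeq2 and 1 to 2 without 1 library. Between old KO and young WT they were 2 without a filter and 2 to 4 without 1 library. The battery genes called with genotype were 2 with DESeq2. The electron transfer and heme genes called were 3 to 7 with age and 0 to 1 with genotype without 1 library, and 0 with genotype under RLE scaling and limma voom. The macrophage markers called with genotype were 1 with limma voom and 0 to 5 without 1 library, with 0 without old WT 4 or old KO 2, 4, 5 or 6.

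The mice of a shared number are separate animals. Correlations of same-numbered deviations were -0.0312 to 0.077 over 2 pairs for age, 0.00204 to 0.0231 over 3 pairs for genotype and -0.153 to 0.06 over 4 pairs for old KO against young WT, and 0 pairs correlated best with their own number. With the number as a replicate block, the values with age were -0.22 for Ahr, 0.04 for Cyp1a1 and -0.38 for Cyp1b1, and with genotype 0.28 for Ahrr, -0.18 for Tiparp and 0.64 for Cyp1b1. With this block 899 genes were called with age and 6 with genotype, 2 battery genes and 3 electron transfer and heme genes with age, and 0 electron transfer and heme genes and 0 macrophage markers with genotype.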

Other observations

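Between old KO and young WT, where age and genotype both differ, the battery genes included called UGT1A members that went both ways. These genes were named after their values were seen. Ugt1a6a was higher in old KO by a log2 fold change of 0.39 (edgeR adjusted p 0.0125), from 36.7 ± 3.4 to 48.2 ± 4.8 CPM (SD, n = 5 each), and Ugt1a6b by 0.58 (adjusted p 0.00666). Ugt1a9 was lower, from 70.8 ± 16.3 to 38.9 ± 14.2 CPM (SD, n = 5 each; -0.86, adjusted p 0.0155). With age the log2 fold changes were 0.03 for Ugt1a6a, 0.22 for Ugt1a6b and 0.05 for Ugt1a9. With genotype they were 0.36, 0.36 and -0.91, and edgeR called none of these. UGT1A transcripts share their last exons, so the assignment of reads among them is uncertain. In all, 7 of 17 tested battery genes were called higher and 3 lower in this comparison, against 12% and 11.3% of all genes. Called higher and lower were 2 and 2 of 16 chaperones and partners, 4 and 3 of 12 tryptophan genes and 6 and 3 of 15 electron transfer and heme genes.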
